A study of Homo sapiens with 6 samples.

Results

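The Hippo pathway was followed through 10 genes in HK-2 cells, a line of immortalised tubular epithelial cells from human kidney, all exposed to 20 µM cisplatin. The genes were taken by name, YAP1, WWTR1, TEAD1, LATS1, LATS2, CCN1, CCN2, AMOTL2, ANKRD1 and AJUBA, with earlier results of these data known. All 10 were found among the 18969 genes of the deposited table. The 2 groups were 3 libraries labelled Nfe2l1 overexpression and 3 control libraries labelled WT. Nfe2l1 is the gene of a transcription factor often called Nrf1, and the study asked what its overexpression does to cells under cisplatin, which both groups received. The labels give no untreated cells, no vector and no clone, and do not say whether libraries came from separate cultures, so p-values here describe the spread between libraries.

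In the Hippo pathway, the kinases STK3 and STK4 switch on the kinases LATS1 and LATS2, which phosphorylate the coactivators YAP, encoded by YAP1, and TAZ, encoded by WWTR1. Phosphorylated YAP and TAZ are held in the cytoplasm or degraded. When the kinases are quiet, YAP and TAZ enter the nucleus, bind DNA through TEAD factors and switch on genes such as CCN1, CCN2 and ANKRD1. LATS2 and AMOTL2 are at once targets and brakes of YAP. In the injured kidney tubule the pathway is studied for its part in regrowth and in scarring. Because its main switch is phosphorylation and location of proteins, messenger RNA levels do not report its activity directly.

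TEAD factors recognise the letters GGAATG, and the promoters of 2 target genes and of YAP1 are shown because the results below set these genes side by side. Each sequence is the 250 bases before the start of the gene in the RefSeq promoter table (GRCh38.p14), read 5′ to 3′ on the strand of the gene, with the motif in capitals. The CCN2 promoter lies at chr6:131951373-131951622 (minus strand), the ANKRD1 promoter at chr10:90921088-90921337 (minus strand) and the YAP1 promoter at chr11:102110197-102110446 (plus strand).
CCN2: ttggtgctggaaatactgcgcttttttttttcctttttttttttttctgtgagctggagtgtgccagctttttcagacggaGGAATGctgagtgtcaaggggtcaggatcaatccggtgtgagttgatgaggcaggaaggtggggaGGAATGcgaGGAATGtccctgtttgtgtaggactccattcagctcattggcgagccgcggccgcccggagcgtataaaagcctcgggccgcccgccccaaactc
ANKRD1: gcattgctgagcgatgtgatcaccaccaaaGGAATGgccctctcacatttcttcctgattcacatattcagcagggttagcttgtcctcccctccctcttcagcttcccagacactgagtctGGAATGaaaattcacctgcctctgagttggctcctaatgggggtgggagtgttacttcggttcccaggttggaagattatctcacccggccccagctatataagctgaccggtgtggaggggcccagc
YAP1: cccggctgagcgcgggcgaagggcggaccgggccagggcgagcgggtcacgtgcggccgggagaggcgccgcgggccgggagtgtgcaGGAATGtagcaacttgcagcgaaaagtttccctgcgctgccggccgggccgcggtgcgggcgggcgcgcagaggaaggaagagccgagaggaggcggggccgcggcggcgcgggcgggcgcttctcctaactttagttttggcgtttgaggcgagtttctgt

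The CCN2 promoter held the motif 3 times, starting 169, 104 and 95 bases before the gene start. The ANKRD1 promoter held it 2 times, at 220 and 128 bases, and the YAP1 promoter once, at 162 bases. AMOTL2 and AJUBA each held it once in 1 of 2 listed promoters, at 69 and 59 bases before those starts. WWTR1, LATS1 and LATS2 had no match of these letters in their windows, searched on both strands. Of all 35116 promoters of the same length, 11.9% held the motif at least once, 0.940% at least 2 times and 0.0826% at least 3 times. CCN1 and TEAD1 were not matched to the table. A match is a description of letters and does not show that a TEAD factor binds there.

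Libraries held 16865460 to 23458333 counted reads when labelled overexpression and 19821519 to 22365895 as controls. The targeted gene NFE2L1 stood at 245, 744 and 340 CPM (counts scaled for depth with TMM factors) in libraries 1, 2 and 3 labelled overexpression, against 234, 253 and 246 CPM in controls. Library 1 therefore carried the overexpression label with NFE2L1 inside the control range, and every direction below includes it. NFE2L1 stood 0.86 above controls on the log2 scale (standard error, SE, 0.35) and did not pass (edgeR quasi-likelihood test, adjusted p = 0.115; exact two-sided permutation p = 0.3, where 0.1 is the floor for this design). This difference rested on library 2: it was 0.25 when that library was left out (edgeR adjusted p = 0.265), and 1.14, which passed, when library 1 was left out (0.0286). Markers of mature proximal tubule were nearly silent: 4 of 11 could be analysed, their summed level was 0.378 to 0.677 FPKM in libraries labelled overexpression and 0.498 to 0.675 FPKM in controls, and each averaged under 1 FPKM. KRT8, KRT18, KRT19 and EPCAM, the 4 of 5 epithelium markers analysed, summed to 1081 to 1377 FPKM in libraries labelled overexpression and 836 to 926 FPKM in controls. The remaining epithelium marker, CDH1, was not among the genes of the deposited table. COL1A1, PDGFRB, DCN and LUM, the 4 of 5 fibroblast markers analysed, summed to 5.64 to 7.26 FPKM in libraries labelled overexpression and 15.0 to 18.3 FPKM in controls, and 1 of 3 leukocyte markers and 0 of 3 endothelial markers were analysed here, the leukocyte marker at 0.240 FPKM or less. Over all genes, FPKM summed to 605615 to 626091 in libraries labelled overexpression and 484861 to 519524 in controls. FPKM levels of the 2 groups are thus not on equal totals. The part of these levels and totals in the results below was not tested.

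The coactivator YAP1 and both LATS kinase genes fell in the libraries labelled overexpression, to between 45.2% and 53.9% of control. LATS2 is itself a YAP target. Of other target genes, CCN1, CCN2 and AMOTL2 did not pass the test, and neither did the LATS inhibitor gene AJUBA. All of these lay within 0.13 of no change on the log2 scale. WWTR1, TEAD1 and the target gene ANKRD1 had lower means and did not pass. CCN1 and CCN2 (2.28 and 2.34 kb) are shorter genes than YAP1, LATS1 and LATS2 (5.40, 7.36 and 5.55 kb), and gene length is taken up below. In all, 3 of the 10 genes passed, all 3 downward, where 9.49% of the 15046 genes tested passed downward, 9.62% upward and 19.1% in either direction (edgeR, Benjamini-Hochberg adjusted p under 0.05). The plot of CPM by library shows each value, with LATS1, LATS2, YAP1 and WWTR1 lower in every library labelled overexpression than in every control, as were 20.9% of all genes tested, and AJUBA higher in every one, as were 21.8%.

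**Figure D1:**
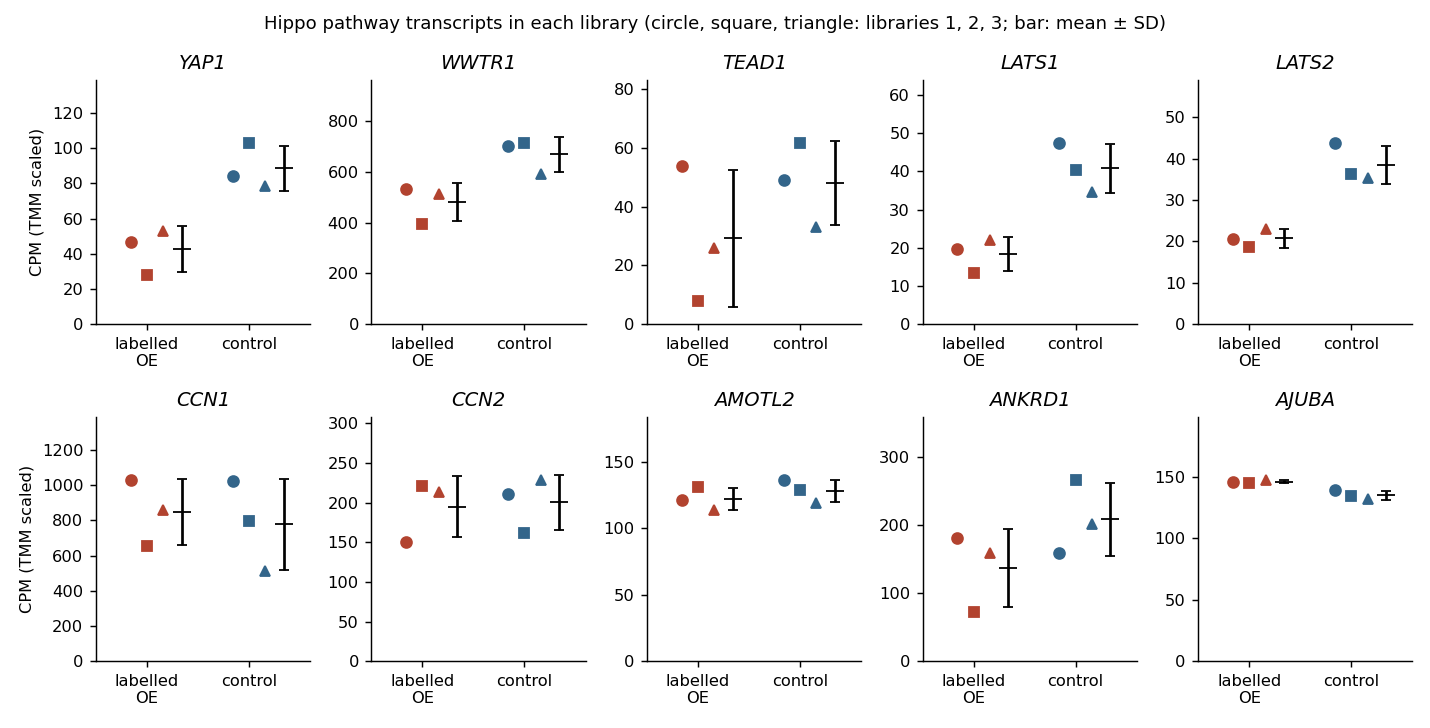
Levels of the 10 genes in each library, as CPM with TMM scaling on axes that start at 0, for the 3 libraries labelled overexpression (labelled OE, red) and the 3 controls (blue), with the mean ± SD beside the points. All 3 libraries labelled overexpression lie below all 3 controls for YAP1, WWTR1, LATS1 and LATS2, and library 2 (square) is lowest for TEAD1 at 7.68 CPM and for ANKRD1 at 72.7 CPM.

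YAP1 (ENSG00000137693, chromosome 11, 102110447 to 102233424, plus strand, GRCh38.p13) encodes the coactivator that gives the pathway its nuclear output. It stood at 46.7, 27.9 and 53.2 CPM in libraries 1, 2 and 3 labelled overexpression, against 84.1, 103 and 78.6 CPM in controls. Every library labelled overexpression was below every control, and library 2 was lowest. Means came to 42.6 ± 13.2 CPM in libraries labelled overexpression and 88.4 ± 12.5 CPM in controls (SD, n = 3 each). YAP1 fell by 1.05 on the log2 scale (SE 0.25, edgeR adjusted p = 0.0227), or 48.2% of control, and 3.95% of all tested genes had a lower log2 fold change. For YAP1, the authors' deposited table has -1.09 and an adjusted p of 0.00134, the same values as the DESeq2 Wald test gave here. Without library 1, in which NFE2L1 was not raised, the YAP1 log2 fold change was -1.13 (edgeR adjusted p = 0.0309).

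WWTR1 (ENSG00000018408, chromosome 3, 149517235 to 149736714, minus strand) encodes TAZ, the paralog of YAP, and was the more abundant of the pair. Its values were 534, 394 and 515 CPM in libraries 1, 2 and 3 labelled overexpression, against 704, 714 and 591 CPM in controls. The groups did not overlap. The log2 fold change of -0.48 (SE 0.16) did not pass (edgeR adjusted p = 0.0718), and with limma on log2(FPKM + 1) it was -0.62 and passed (adjusted p = 0.0313). With edgeR offsets for gene length, and for length and GC content, WWTR1 stood at -0.16 and 0.06 and did not pass (edgeR adjusted p = 0.468 and 0.841).

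Per length, WWTR1 exceeded YAP1 in every library. The ratio of YAP1 to WWTR1 in FPKM (fragments per kilobase of gene, scaled for depth) was 0.0817, 0.0660 and 0.0964 in libraries 1, 2 and 3 labelled overexpression, against 0.112, 0.134 and 0.124 in controls. The ratio was thus lower in each library labelled overexpression than in each control, at 0.0813 ± 0.0152 and 0.123 ± 0.0112 (SD, n = 3 each). By exact permutation, two-sided, p was 0.1, the floor of the design. YAP1 and WWTR1 have similar lengths, 5.40 and 5.04 kb, and GC contents of 43.5% and 40.9%.

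LATS1 (ENSG00000131023, chromosome 6, 149658153 to 149718105, minus strand) encodes a kinase that phosphorylates YAP and TAZ. It had 19.7, 13.5 and 22.0 CPM in libraries 1, 2 and 3 labelled overexpression, against 47.4, 40.3 and 34.7 CPM in controls. The 2 groups were well apart, with a gap from 22.0 CPM, the highest value labelled overexpression, to 34.7 CPM, the lowest control. LATS1 fell by 1.15 on the log2 scale (SE 0.23, edgeR adjusted p = 0.0156), the lowest value of the 10 genes, and 2.75% of tested genes lay lower. Without library 1 labelled overexpression it was -1.20 (edgeR adjusted p = 0.0259).

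LATS2 (ENSG00000150457, chromosome 13, 20973036 to 21061586, minus strand) encodes the second LATS kinase and is itself a YAP target. It had 20.5, 18.6 and 23.1 CPM in libraries 1, 2 and 3 labelled overexpression, against 43.8, 36.3 and 35.3 CPM in controls. Again no library labelled overexpression reached a control, and relative to the mean the values of each group lay closer together than those of YAP1. The means were 20.7 ± 2.24 CPM in libraries labelled overexpression and 38.5 ± 4.60 CPM in controls (SD, n = 3 each), and LATS2 fell by 0.89 on the log2 scale (SE 0.18, edgeR adjusted p = 0.0170). Without library 1 labelled overexpression it was -0.88 (edgeR adjusted p = 0.0324). The ratio of LATS1 to LATS2 in FPKM was 0.724, 0.547 and 0.718 in libraries 1, 2 and 3 labelled overexpression, against 0.816, 0.835 and 0.739 in controls (exact two-sided permutation p = 0.1, the floor), without overlap. LATS1 is longer than LATS2 (7.36 and 5.55 kb) and lower in GC content (39.7% and 51.8%). With the length and GC offset the order of their log2 fold changes was the opposite, at -0.49 for LATS1 and -0.70 for LATS2.

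The 3 calls depended on the controls. Without control 1, YAP1, LATS1 and LATS2 had log2 fold changes of -1.09, -1.03 and -0.79 and none passed (edgeR adjusted p = 0.0950, 0.0893 and 0.0939). Without control 2 they were -0.94, -1.16 and -0.94 and none passed (0.101, 0.0740 and 0.0767), and without control 3 YAP1 did not pass (-1.14, edgeR adjusted p = 0.0501). Of all genes tested, 1 passed without control 1 and 0 without control 2, while 3962 and 3863 genes stood below 0.05 before adjustment (edgeR).

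TEAD1 (ENSG00000187079, chromosome 11, 12674421 to 12944737, plus strand) encodes a DNA-binding partner of YAP and TAZ, and it varied most among the libraries labelled overexpression. It stood at 53.8, 7.68 and 26.0 CPM in libraries 1, 2 and 3 labelled overexpression, against 49.1, 61.6 and 33.0 CPM in controls. Library 1 was above 2 of the 3 controls, and library 2 was far below all of them. The log2 fold change of -0.72 had an SE of 0.56 and did not pass (edgeR adjusted p = 0.382). It was -1.51 without library 1 labelled overexpression, which passed (edgeR adjusted p = 0.0490), and -0.27 without library 2 (adjusted p = 0.570).

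Among its paralogs, TEAD4, the one with the highest mean FPKM in libraries labelled overexpression, rose. It had 50.2, 32.3 and 43.3 CPM in libraries 1, 2 and 3 labelled overexpression, against 23.4, 27.4 and 22.8 CPM in controls (log2 fold change 0.77, SE 0.21, edgeR adjusted p = 0.0349). All 3 libraries labelled overexpression were above all controls, with library 1 highest. The TEAD4 call held in 4 of 18 alternative analyses. Without library 1 it was 0.62 and did not pass (edgeR adjusted p = 0.0777), nor did it without library 3 or without any one control (0.0966 to 0.141), or with limma on log2(FPKM + 1) (0.59, adjusted p = 0.0601). TEAD2 and TEAD3 had log2 fold changes of -0.01 and 0.23 and did not pass (edgeR adjusted p = 0.967 and 0.438). The ratio of TEAD1 to TEAD4 in FPKM was 0.116 ± 0.0759 in libraries labelled overexpression and 0.350 ± 0.0772 in controls (SD, n = 3 each; exact two-sided permutation p = 0.1, the floor). TEAD4, at 1.71 kb, is much shorter than TEAD1, at 9.42 kb. Under the offset for length and GC content described below, the log2 fold changes of TEAD4 and TEAD1 were 0.20 and -0.21, neither of which passed (edgeR adjusted p = 0.741 and 0.818).

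CCN1 (ENSG00000142871, chromosome 1, 85580761 to 85584589, plus strand), formerly CYR61, encodes a secreted matrix protein and is among the most used readouts of YAP. It was the most abundant of the 10 genes per length, at 356 ± 86.2 FPKM in libraries labelled overexpression and 356 ± 113 FPKM in controls (SD, n = 3 each). Its counts came to 1027, 657 and 859 CPM in libraries 1, 2 and 3 labelled overexpression, against 1022, 797 and 512 CPM in controls. The ranges overlapped widely, and the lowest value of all was a control. Its log2 fold change was 0.13 (SE 0.26, edgeR adjusted p = 0.758), and its sign changed in 4 of the alternative analyses.

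CCN2 (ENSG00000118523, chromosome 6, 131948176 to 131951372, minus strand), formerly CTGF, encodes the related growth factor whose promoter carries 3 motifs above. It had 151, 221 and 213 CPM in libraries 1, 2 and 3 labelled overexpression, against 211, 162 and 228 CPM in controls. The groups lay within the same range, and library 2, lowest for YAP1, was the highest of its group for CCN2. The log2 fold change was -0.04 (SE 0.20, edgeR adjusted p = 0.910), with a sign that changed in 2 alternative analyses. In proportion to YAP1, CCN2 was higher in each library labelled overexpression: the FPKM ratio was 7.46, 18.3 and 9.25 in libraries 1, 2 and 3 labelled overexpression, against 5.80, 3.66 and 6.69 in controls (exact two-sided permutation p = 0.1, the floor). CCN2 is the shorter gene, at 2.34 kb against 5.40 kb for YAP1, and with the length and GC offset their log2 fold changes lay closer, at -0.19 for CCN2 and -0.61 for YAP1. The ratio of CCN1 to CCN2 overlapped between groups, at 4.72 ± 2.04 in libraries labelled overexpression and 4.10 ± 1.55 in controls (SD, n = 3 each).

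ANKRD1 (ENSG00000148677, chromosome 10, 90912096 to 90921087, minus strand), a target gene whose product is a nuclear and muscle ankyrin repeat protein, had 180, 72.7 and 159 CPM in libraries 1, 2 and 3 labelled overexpression, against 159, 265 and 201 CPM in controls. Libraries 1 and 3 lay at the lower end of the controls and library 2 well below. The log2 fold change of -0.60 (SE 0.32) did not pass (edgeR adjusted p = 0.213) and was -0.30 without library 2 (adjusted p = 0.292). At 1.79 kb ANKRD1 is the shortest of the 10 genes, and the median log2 fold change of all genes in its class of gene length was 0.37.

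AMOTL2 and AJUBA were the steadiest of the 10 genes. AMOTL2 (ENSG00000114019, chromosome 3, 134355347 to 134375479, minus strand), which encodes an angiomotin that holds YAP at junctions, had 121, 131 and 114 CPM in libraries 1, 2 and 3 labelled overexpression, against 136, 129 and 119 CPM in controls, with overlap (log2 fold change -0.07, SE 0.14, edgeR adjusted p = 0.772). AJUBA (ENSG00000129474, chromosome 14, 22971177 to 22982551, minus strand), which encodes a LIM protein that restrains LATS kinases, had 146, 145 and 147 CPM in libraries 1, 2 and 3 labelled overexpression, against 139, 134 and 132 CPM in controls. The groups did not overlap for AJUBA. Its log2 fold change was 0.11 (SE 0.13, edgeR adjusted p = 0.578), and on log2(FPKM + 1) its sign was the opposite, at -0.02.

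In levels per length, the order of the 10 genes was much the same in both groups. In libraries labelled overexpression CCN1 (356 FPKM) was followed by WWTR1 (91.3), CCN2 (79.5), ANKRD1 (73.7), AJUBA (33.4), AMOTL2 (23.9), YAP1 (7.58), LATS2 (3.57), TEAD1 (2.98) and LATS1 (2.40). The ranges of WWTR1, CCN2 and ANKRD1 overlapped with their neighbours in that order, as did those of LATS2, TEAD1 and LATS1, while CCN1, AJUBA, AMOTL2 and YAP1 were each apart from the next. In controls ANKRD1 (122 FPKM) stood before CCN2 (89.9), and LATS2 (7.26), LATS1 (5.79) and TEAD1 (5.31) closed the order, where WWTR1 and ANKRD1, ANKRD1 and CCN2, and LATS1 and TEAD1 overlapped.

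**Figure D2:**
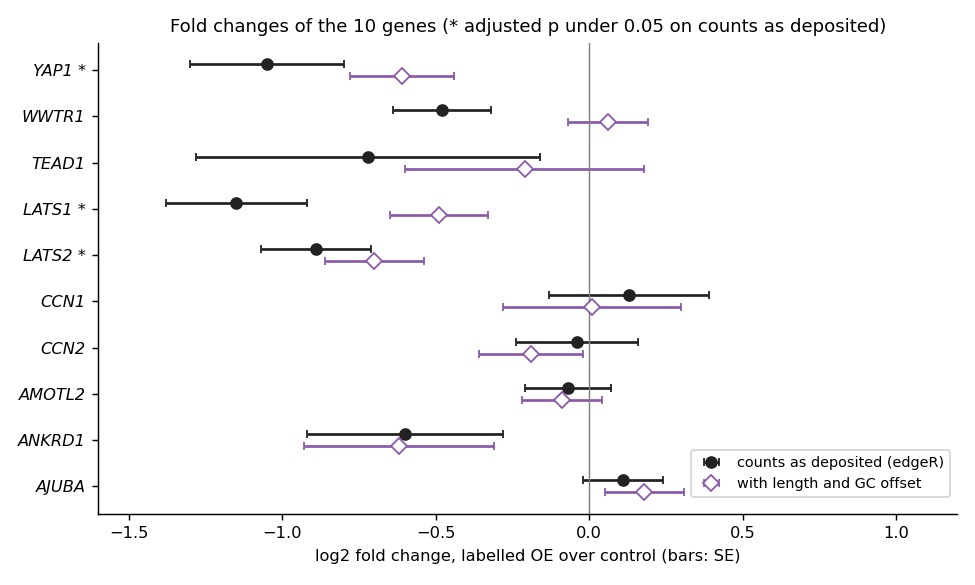
Log2 fold changes of the 10 genes, libraries labelled overexpression over controls, with bars of 1 SE, from edgeR on the counts as deposited (filled circles) and with an offset per library for gene length and GC content (open diamonds). YAP1, LATS1 and LATS2 (asterisks) passed on the counts as deposited at -1.05, -1.15 and -0.89, and with the offset stood at -0.61, -0.49 and -0.70.

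Gene length and GC content moved with these results. Across all genes tested, the median log2 fold change was 0.61 in the shortest of 10 equal classes by length (median 0.594 kb) and -0.49 in the longest (median 8.99 kb). LATS1 and TEAD1 (7.36 and 9.42 kb) belong to the longest class, YAP1 and LATS2 to the next, with a median of -0.40, and CCN1 and CCN2 (2.28 and 2.34 kb) to one with a median of 0.24. Set against the median of their length class, the log2 fold changes of YAP1, LATS1 and LATS2 differed by -0.65, -0.66 and -0.49. That of ANKRD1 differed by -0.97, the most of the 10 genes. With the length offset ANKRD1 stood at -0.86 and did not pass (edgeR adjusted p = 0.143). WWTR1, TEAD1, CCN1, CCN2, AMOTL2 and AJUBA differed by -0.18, -0.23, -0.11, -0.28, 0.23 and 0.31. These differences from the class medians were not tested. Library 2 labelled overexpression, the lowest of the 6 libraries for 6 of the 10 genes, also deviated most in the longest class, at -0.66 from the mean of the 6 libraries, against 0.02 and -0.16 in libraries 1 and 3 and 0.33, 0.43 and 0.07 in controls.

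With an offset per library for gene length and GC content, 0 of the 10 genes passed, as against 0.691% of all genes tested (104 genes, edgeR; 2947 had an unadjusted p under 0.05). LATS2 then stood at -0.70 on the log2 scale (SE 0.16, edgeR adjusted p = 0.0664), YAP1 of -0.61 (SE 0.17, 0.106) and LATS1 of -0.49 (SE 0.16, 0.150). TEAD1 moved to -0.21 (SE 0.39, 0.818). CCN1, at 0.01, CCN2, at -0.19, AMOTL2, at -0.09, ANKRD1, at -0.62, and AJUBA, at 0.18, did not pass (adjusted p from 0.308 to 0.990).

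**Figure D3:**
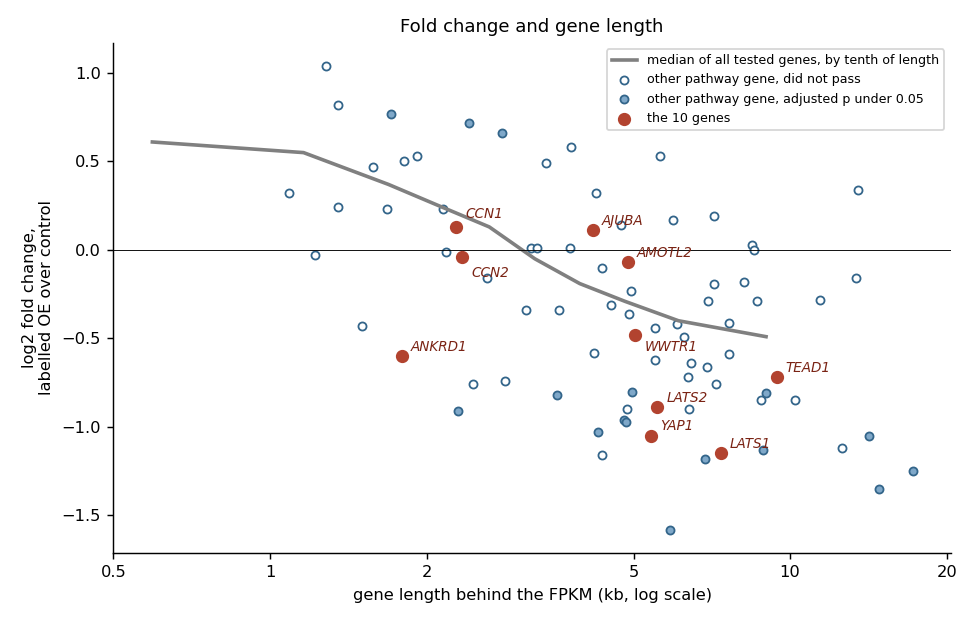
Log2 fold change, libraries labelled overexpression over controls, against gene length in kb on a log axis for the 10 genes (red) and the other tested genes of the pathway lists (blue outlines, filled where the adjusted p was under 0.05), with the median of all tested genes in each of 10 classes of length as a grey line. Among the 10 genes, ANKRD1, YAP1, LATS1 and LATS2 lie farthest below the line, and AJUBA and AMOTL2 lie above it.

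The wider pathway was read from lists that included the 10 genes and were also chosen with earlier results of these data known. Of 21 tested core kinases and scaffolds, 6 fell and 0 rose, with a median log2 fold change of -0.66, where all genes had a median of 0.03 and 9.49% passed downward. Besides LATS1 and LATS2 these were MAP4K5, a kinase upstream of LATS (-1.03, edgeR adjusted p = 0.0156), STK38L, a relative of LATS (-0.80, 0.0215), WWC2, a scaffold of the KIBRA family (-1.13, 0.0333), and FRMD6, a membrane-linked activator (-0.96, 0.0434). The kinases STK3 and STK4 (-0.74 and -0.72) and their partner SAV1 (-0.34) did not pass, nor did NF2, the merlin gene (0.17). The list has a median length of 5.55 kb. Its median under the offset for length and GC content was -0.14 and 0 passed, beside 0.691% of all genes tested.

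Among 21 tested junction inputs and LATS inhibitors, 4 fell and 0 rose, with a median of -0.44. The share called was 19.0%, all downward, beside 9.49% of all genes tested downward and 19.1% in either direction. The list has a median length of 6.45 kb, beside 2.92 kb for all genes tested. The giant cadherin gene FAT1 had 50.8, 31.0 and 53.9 CPM in libraries 1, 2 and 3 labelled overexpression, against 121, 144 and 80.9 CPM in controls (log2 fold change -1.35, SE 0.27, edgeR adjusted p = 0.0156). No library labelled overexpression reached a control for FAT1. FAT4, a related cadherin gene, fell by 1.25, the striatin gene STRN by 1.05 and the angiomotin gene AMOTL1 by 0.81 on the log2 scale (edgeR adjusted p = 0.0378, 0.0370 and 0.0273). FAT4 was barely detected, at 0.121 and 0.313 FPKM on average in libraries labelled overexpression and in controls. Its call held in only 3 of the 14 alternative analyses that included it. Of 18 alternatives, the STRN call held in 9, the AMOTL1 call in 10 and the FAT1 call in 13. The angiomotin genes thus differed in their values, with AMOT at -0.59 (edgeR adjusted p = 0.0860) and AMOTL2 at -0.07, and the difference between them was not tested. With the length and GC offset the list median was -0.12 and 0 passed, beside 0.691% of all genes tested.

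Of 7 tested transcription factors and cofactors, YAP1 fell and TEAD4 rose, with a median of -0.01, beside 9.49% of all genes tested downward and 9.62% upward. With the length and GC offset the median was -0.21 and 0 passed, beside 0.691% of all genes tested. VGLL4, a competitor of YAP for TEAD, stood at 0.01 on the log2 scale (edgeR adjusted p = 0.969).

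Of 21 tested YAP and TAZ target genes, 6 fell, 1 rose and 14 did not pass, with a median of -0.18. The share called was 33.3%, beside 19.1% of all genes tested (9.49% downward, 9.62% upward). TGFB2, a growth factor gene, fell most, with 35.6, 27.6 and 37.0 CPM in libraries 1, 2 and 3 labelled overexpression, against 128, 104 and 67.3 CPM in controls (log2 fold change -1.58, SE 0.25, edgeR adjusted p = 0.0109). NT5E, the gene of the ecto-nucleotidase CD73, had 202, 178 and 210 CPM in libraries 1, 2 and 3 labelled overexpression, against 320, 370 and 355 CPM in controls (-0.82, SE 0.14, edgeR adjusted p = 0.0124). In both genes the groups were apart.

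MYOF, a membrane repair protein gene, fell by 1.18 and the tissue factor gene F3 by 0.91 on the log2 scale (edgeR adjusted p = 0.0159 and 0.0335), and LATS2 is also among the 6. FJX1, a Golgi protein gene, rose by 0.72 (edgeR adjusted p = 0.0247). Beside CCN1 and CCN2, the receptor kinase gene AXL (0.14) and the growth factor binding protein gene IGFBP3 (-0.16) did not pass. With the length and GC offset the median was -0.19 and 0 passed, beside 0.691% of all genes tested. TGFB2 then stood at -0.92 (edgeR adjusted p = 0.0558). Without library 1 labelled overexpression the median was -0.73, and without library 2 it was -0.22.

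Of 14 tested genes of SRF and MRTF, actin-responsive factors that share targets with YAP, MYL9 rose (0.66, edgeR adjusted p = 0.0275) and 13 did not pass, with a median of 0.27, beside 9.62% of all genes tested upward. With the length and GC offset MYL9 stood at 0.29 (edgeR adjusted p = 0.385). The median of the list, which has a median length of 2.47 kb, was then -0.00. Of the list 0 passed, beside 0.691% of all genes tested. In the CCN family 0 of 4 passed (edgeR; adjusted p from 0.0601 for CCN5, at 1.04, to 0.910), and CCN3 stood at -0.76 (adjusted p = 0.170). Over all these lists together, counting each gene once, 16 of 83 tested genes fell and 3 rose, a share of 22.9% in either direction beside 19.1% of all genes tested. Downward the share was 19.3%, beside 9.49%, and upward 3.61%, beside 9.62%. With the length and GC offset 0 of the 83 passed, beside 0.691% of all genes tested.

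**Figure D4:**
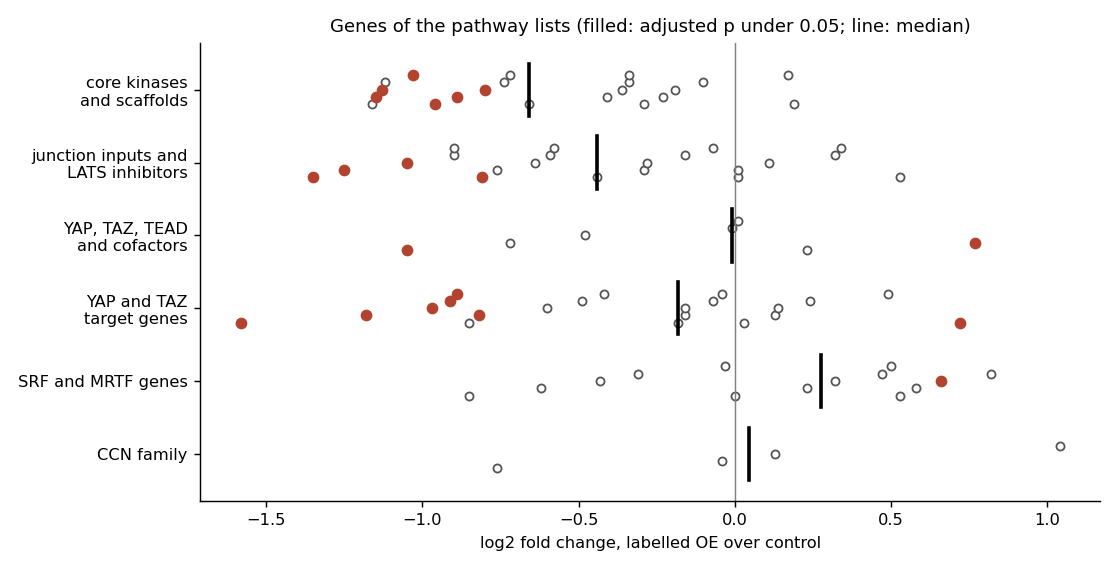
Log2 fold changes, libraries labelled overexpression over controls, of the tested genes in 6 lists (1 point per gene, spread vertically for legibility), filled where the edgeR adjusted p was under 0.05, with the list median as a line. The medians are -0.66 for core kinases and scaffolds, -0.44 for junction inputs and LATS inhibitors, -0.01 for YAP, TAZ, TEAD and cofactors, -0.18 for target genes, 0.27 for SRF and MRTF genes and 0.04 for the CCN family.

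The nearest expression patterns were sought among 12434 named protein-coding genes, by the root mean square distance between centred log2 CPM over the 6 libraries. YAP1 was closest to TPR, a nuclear pore gene, at 0.0489, then to the DNA repair gene NBN at 0.0525 and to ZC3H12C at 0.0663. TPR had 98.7, 62.5 and 124 CPM in libraries 1, 2 and 3 labelled overexpression, against 194, 225 and 179 CPM in controls. The closest of the other 9 genes was LATS1, at 0.172, which took place 222 among all genes. CCN1 was closest to VEGFC, FAM172A and TSEN15 (0.0906 to 0.104), and CCN2 was close to C15orf65 (0.0237) and LRRC57 (0.0552). C15orf65 and FAM172A had low levels over the 6 libraries, at 1.17 to 1.75 CPM and 2.51 to 4.91 CPM. AJUBA was the closest of the 10 genes to CCN1 and to CCN2, in places 1229 and 1479.

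Counts of some of the 10 genes could include reads of overlapping transcripts, since the counting is not stated to use strand. An antisense long noncoding RNA (lncRNA) gene overlapping YAP1 held 1.07% of the YAP1 count, and the overlapping lncRNA genes of LATS1, WWTR1 and CCN2 held 0.783%, at most 0.204% and 0.0795% of those counts. In bulk libraries, fewer cells with a transcript and less of it per cell cannot be told apart.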

How the data were processed

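Libraries were made from 2 groups of 3 with a stranded mRNA kit, as the labels' protocols describe. Trimmomatic 0.36 and GRCh38 appear in the submitters' processing notes. No aligner, counter or annotation release is given in these sources. Coordinates are on GRCh38.p13, per the file headers. The authors deposited raw counts per gene, FPKM values, and log2 fold changes with adjusted p-values whose test is not stated. The lowest row sum was 10 counts. Gene length was derived from the deposited counts and FPKM.

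Counts of 15046 genes kept by filterByExpr were tested with edgeR 4.0.16 (R 4.3.3, TMM, glmQLFit and glmQLFTest, all 6 libraries, group only), with Benjamini-Hochberg adjustment over all genes at 0.05. SE is the absolute log2 fold change over the square root of F. The fit was tested on simulated counts with known changes. These were drawn separately for each gene and without drift by length or GC content, so they do not cover such drift. Log2 CPM used a prior count of 2. Alternatives were DESeq2 1.42.0 (size factors, Wald test), no filter, limma 3.58.1 on log2(FPKM + 1), + 0.5 and + 0.1 over genes with at least 1 FPKM in 3 libraries, without that filter, and after rescaling FPKM to a common sum, a replicate block, offsets for length and for length and GC content (smooths of each library's deviation, mgcv 1.9.3; GC of the longest GENCODE transcript, present for 98.45% of rows), and leaving out each library.

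The 10 genes, the lists and the alternatives were chosen with earlier results of these data known. Named genes are the 10, NFE2L1, list genes that passed (up to 8 per list) and the 3 nearest patterns of YAP1, CCN1 and CCN2. Of these, 2 genes are not reported here. Other genes were named after their values were seen. Promoters are RefSeq sequences, matched for 8 of the 10 genes. No batch or date is given in the labels.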

Additional observations from a re-analysis of the deposited data

How the results depend on the processing

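Log2 fold changes of YAP1, LATS1 and LATS2 stayed negative in all 18 alternatives (-1.40 to -0.61, -1.30 to -0.48 and -1.11 to -0.53) and passed in 11, 12 and 12. They were not past the threshold with the length offset (-0.72, -0.70 and -0.53), with the length and GC offset (-0.61, -0.49 and -0.70), with the replicate block (-1.09, -1.16 and -0.89) or with block and length and GC offset (-0.63, -0.48 and -0.69). Leaving out single libraries gave -1.25 to -0.83, -1.30 to -0.97 and -0.98 to -0.79.

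With the replicate block 0 genes passed of all tested, with or without the length and GC offset, so 0 of the 10 genes and 0 of each list did (edgeR; 4413 and 2285 had an unadjusted p under 0.05). Same-numbered libraries did not deviate together (r = 0.00612, -0.512 and 0.0882), so the numbers are not taken as pairs. Between differently numbered libraries r ran from -0.502 (library 1 labelled overexpression with control 3) to 0.598 (library 1 labelled overexpression with control 2). The source of this shared variation was not tested.

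The count of all genes called was 2876, with 1013 under the length offset, 104 under length and GC, 4703 on rescaled FPKM and 0 to 3649 without single libraries. Rescaling moved the median of all genes to -0.35. On that scale 533 genes rose and 4170 fell, and 1198 and 2027 on log2(FPKM + 1). For the 10 genes the count was 3, with 0 under either offset, 6 on rescaled FPKM and 0 to 4 without single libraries. For core kinases it was 6, with 1 and 0 under the length and the length and GC offset. It was 14 on rescaled FPKM, 10 with the DESeq2 Wald test and 0 to 9 without single libraries. For junction inputs it was 4, with 1 and 0 under these offsets and 12 on rescaled FPKM. It was 8 with the DESeq2 Wald test, 2 with limma without a filter and 0 to 6 without single libraries. For factors and cofactors it was 2 (YAP1 and TEAD4), with 0 under either offset and 0 to 2 without single libraries. The genes differed at a count of 2: they were YAP1 and WWTR1 in the limma fits, and YAP1 and TEAD1 without library 1 labelled overexpression. TEAD4 passed in 4 of 18 alternatives (0.15 to 0.92), and MYL9 in 11 and FJX1 in 9 of 18. For target genes it was 7, with 4 and 0 under these offsets and 0 to 8 without single libraries.

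WWTR1 passed in the limma fits (-0.62 at each pseudocount and without a filter, -0.92 on rescaled FPKM) and was 0.06 with the length and GC offset, with or without the block. On rescaled FPKM AMOTL2 (-0.49) and ANKRD1 (-1.10) passed, and CCN1 was -0.28 and AJUBA -0.32. AJUBA was -0.02 in the other limma fits. With the length offset CCN1 was -0.02 and AMOTL2 0.25. Without single libraries TEAD1 ran from -1.51 to -0.27, CCN1 from -0.11 to 0.37, CCN2 from -0.17 to 0.12 and NFE2L1 from 0.25 to 1.14. The cause of these shifts was not tested.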
